A study of Mus musculus with 2 samples.

Results

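Complement components and regulators were examined in 2 three-dimensional murine skin models, 1 built from Itih5 knockout cells and 1 from wildtype control cells. The genes were those of a list of 9 complement members (C2, C3, C4b, Cfb, Cfd, Serping1, Cd55, Cd59a and Masp1), found through probe sets that the platform annotation maps to exactly 1 of these symbols. Of the 9, 7 had such a probe set, 1 each, among 22180 genes named in this way. C3 and Cfd were not analysed here. Both models hold dermal fibroblasts and epidermal keratinocytes taken from skin of adult, untreated mice and passaged serially as continuing cultures. The titles of both mark day 7. The sources used here do not say which part of Itih5 was removed, in which strain, or how many mice gave cells. Total RNA of each model was amplified to sense-strand cDNA, labelled with biotin and hybridised to 1 Affymetrix array, so no value has a replicate error and no p-value was computed.

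Complement is a cascade of serum and tissue proteins that marks foreign or damaged surfaces and opens pores in membranes. The classical pathway starts when C1q, with its proteases, binds antibody or other ligands, the lectin pathway when sugar-binding lectins do so with the MASP proteases, and both cut C4 and C2 into a C3 convertase. The alternative pathway builds its own convertase from C3, factor B and factor D, the protease also called adipsin. Inhibitors in plasma and on membranes hold these steps in check on the body's own cells. The liver makes most plasma complement, but keratinocytes and fibroblasts of the skin also express several components and regulators.

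Values are array intensities in which a lost decimal point was restored, and each difference is the log2 value on the knockout array less that on the wildtype array. A gene counted as expressed if it reached 46.4, the median intensity of all restored probe sets, on at least 1 array. The Itih5 probe set read 30.4 on the knockout array and 29.8 on the wildtype array, below that threshold on both arrays, so it checks neither label. Intensities ran from 18.3 to 14117 on the knockout array and from 18.5 to 15400 on the wildtype array. The median difference of the 12700 expressed genes was 0.04, and the central 50% lay between -0.21 (percentile 25) and 0.31 (percentile 75).

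Masp1, Cd55 and C4b read highest in the knockout relative to the wildtype model, Cd59a and Cfb read slightly higher, Serping1 was close to equal and C2 read slightly lower. All 7 genes were expressed, 6 of them on both arrays, while Cd55 passed through its knockout value alone. Differences ran from -0.37 to 1.20, with a median of 0.49, or 0.41 over the 6 without Cd55, against 0.04 over all expressed genes. At least 2-fold higher were 2 of 7, Masp1 and Cd55, and at least 2-fold lower were 0 of 7. Of the 6 expressed on both arrays, 1 was at least 2-fold higher. Over all expressed genes, 3.80% were higher and 3.34% lower by at least 2-fold. Undecided genes are left out of these shares, which makes them undercounts, while none of the 7 members was undecided.

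**Figure D1:**
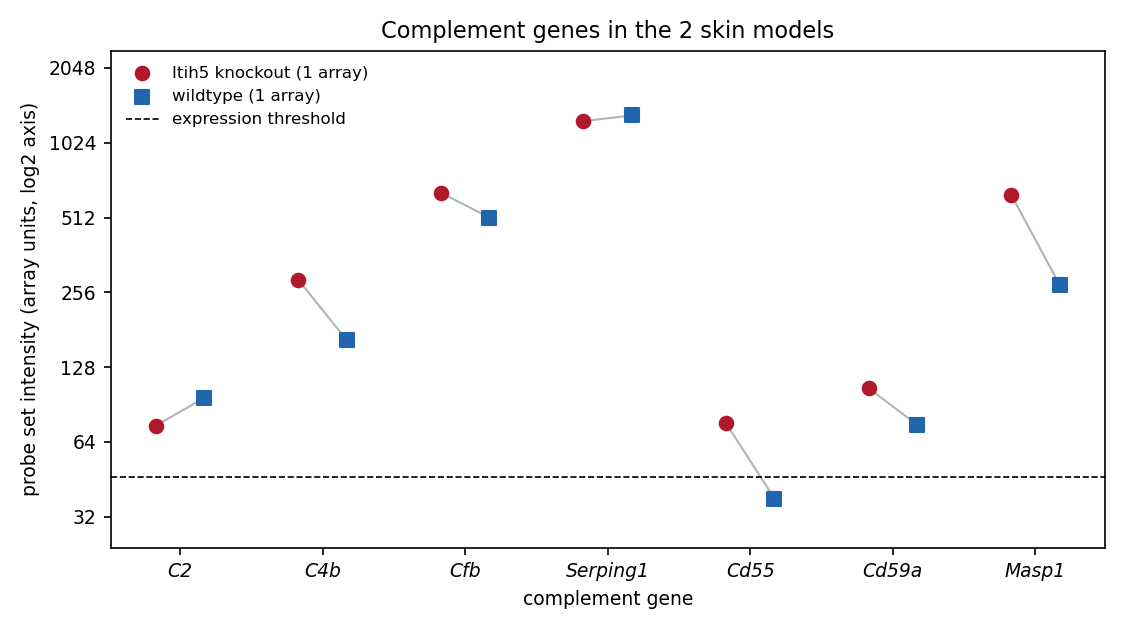
Probe set intensity of the 7 complement genes (vertical log2 axis, array units) in the Itih5 knockout model (red circles, left of each pair) and the wildtype model (blue squares), with 1 array each and hence no error bars. The dashed line is the expression threshold of 46.4. Masp1, C4b, Cd55, Cd59a and Cfb are higher on the knockout array, and the wildtype value of Cd55, 37.9, is the 1 point under the line.

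Among the initiating proteases and the components they cut, Masp1 showed the largest difference. Masp1 encodes proteases of the lectin pathway, among them one that matures factor D. Its probe set (17329403, Entrez 17174) read 633 on the knockout array and 275 on the wildtype array, a log2 difference of 1.20 or 2.30-fold. A single place of the decimal point was possible on each array, and 2.30% of expressed genes had a difference at least as high. The exons covered by this probe set are not named in any source used here, so the products of Masp1 were not told apart.

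C4b encodes complement C4, the thioester protein that attaches to surfaces once cut. It read 287 on the knockout array and 164 on the wildtype array, a log2 difference of 0.81 (1.75-fold), and 6.21% of expressed genes were at least as high. C4a, a near-identical copy that the RefSeq table used here lists as a transcribed pseudogene, read 36.8 on the knockout array and 45.3 on the wildtype array, below the threshold on both arrays. Whether RNA of one copy reached the probes of the other was not tested. C2 encodes the protease that joins C4 in the classical convertase, and its direction was the opposite of that of C4b. It read 74.4 on the knockout array and 96.2 on the wildtype array, a log2 difference of -0.37 (1.29-fold lower). This was under 2-fold, and 15.0% of expressed genes had a difference at least as low.

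In the alternative pathway Cfb encodes factor B, the homologue of C2. Cfb read 644 on the knockout array and 512 on the wildtype array, a log2 difference of 0.33 (1.26-fold), and 23.7% of expressed genes were at least as high. The neighbouring genes Cfb and C2 therefore read on opposite sides of 0, both under 2-fold. With 1 array per model it cannot be said whether either difference exceeds the spread between models.

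Of the regulators, Serping1 encodes the C1 inhibitor, the serpin that inactivates the C1 and MASP proteases. It read 1251 on the knockout array and 1319 on the wildtype array, a log2 difference of -0.08. Serping1 was the 1 member inside the central 50% of expressed genes. The protease gene Masp1 and the gene of its inhibitor thus had differences of 1.20 and -0.08.

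Cd55 encodes decay-accelerating factor, a membrane protein that takes convertases apart. It read 76.1 on the knockout array and 37.9 on the wildtype array, a log2 difference of 1.01, with 1 possible place of the point on each array. The wildtype value lay under the threshold, so the size of the difference depends on how the background is treated. It was 0.77 with a pseudocount of 16 and 1.73 with the array background subtracted. The adjacent copy Cd55b read 32.8 on the knockout array and 38.7 on the wildtype array, below the threshold on both.

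Cd59a encodes a membrane protein that blocks the last step of pore assembly. It read 105 on the knockout array and 75.1 on the wildtype array, a log2 difference of 0.49 (1.40-fold), and 15.0% of expressed genes were at least as high. Its copy Cd59b read 30.6 on the knockout array and 27.6 on the wildtype array, below the threshold on both. In both pairs of copies, Cd55 with Cd55b and Cd59a with Cd59b, the listed member was the one that reached the threshold.

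For 5 members at least 1 further place of the decimal point was possible, and the likeliest of these is given here. C4b would read 2874 on the knockout array, with a probability of 0.0077, and Cfb 64.4, with a probability of 0.012. On the wildtype array, Cd59a would read 751 (0.0066) and C2 962 (0.0037). Serping1 would read 12510 on the knockout array, with a probability of 0.00026. These probabilities rest on how all probe sets are distributed, and a true difference near 10-fold is the kind they could hide.

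The promoter windows of Cd55 and Cd59a are shown because these are the members with a window in the RefSeq table used here and both read higher in the knockout model. Each runs from 250 bases before to 50 bases after the start site in build GRCm38.p6, 5′ to 3′ along the gene. Cd55 lies on the minus strand (chr1:130462695-130462994) and Cd59a on the plus strand (chr2:104095551-104095850). Capitals mark matches to the motifs searched.
Cd55: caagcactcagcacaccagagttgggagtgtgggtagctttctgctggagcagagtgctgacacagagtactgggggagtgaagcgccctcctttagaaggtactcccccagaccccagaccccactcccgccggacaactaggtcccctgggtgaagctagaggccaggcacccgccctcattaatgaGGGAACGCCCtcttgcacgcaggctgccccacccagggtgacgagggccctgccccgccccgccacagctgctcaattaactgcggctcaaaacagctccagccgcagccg
Cd59a: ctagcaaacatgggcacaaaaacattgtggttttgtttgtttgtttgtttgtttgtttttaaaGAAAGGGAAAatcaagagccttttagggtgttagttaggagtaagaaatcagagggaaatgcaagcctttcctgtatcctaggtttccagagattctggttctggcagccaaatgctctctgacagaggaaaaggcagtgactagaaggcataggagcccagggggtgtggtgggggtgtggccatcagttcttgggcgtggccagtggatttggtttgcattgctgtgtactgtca

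The motifs were the gamma-activated site (TTC, then 3 free letters, then GAA), the core of the interferon-stimulated response element (GAAA, 2 free letters, GAAA), the NF-kappaB motif (GGGA, 4 free letters, CC), the C/EBP motif (TTGC, 2 free letters, AA) and the TATA box (TATAAA), each read on both strands. The Cd55 window held 1 NF-kappaB match, and such a match was present in 20.7% of 32817 promoter windows. The Cd59a window held 1 match to the interferon element core, present in 3.43% of windows. Neither window matched the gamma-activated site (8.29% of windows), the C/EBP letters (10.8%) or the TATA box (13.6%), and the matches of the 2 genes did not overlap with another motif. The GC content was 63.3% for Cd55 and 45.7% for Cd59a, against a median of 52.7% over all windows. A match describes letters in the window, and no binding was measured.

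**Figure D2:**
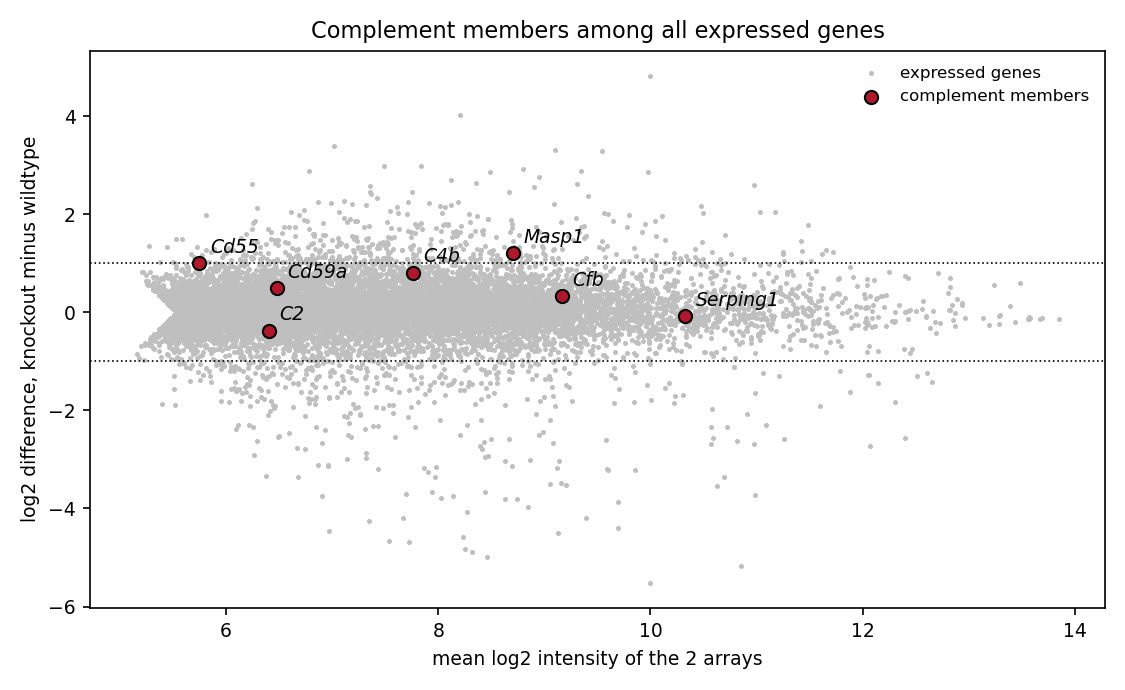
Log2 difference, knockout minus wildtype (vertical axis), against the mean log2 intensity of the 2 arrays (horizontal axis) for 12700 expressed genes (grey) and the 7 complement genes (red). Dotted lines mark 2-fold. Masp1 lies above the upper line and Cd55 on it, at 1.01, while the other 5 lie between the lines.

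The rest of the pathway was read from 4 lists of other complement genes, 49 in all. Of these, 46 had a probe set of 1 symbol and 45 a restored point, and 17 were expressed. Among the 17, C1ra alone was at least 2-fold higher (1 gene) and Cpn1 alone at least 2-fold lower (1 gene) in the knockout model. Their median difference was 0.17. A count of 1 of 17 in each direction is close to the shares over all expressed genes, 3.80% higher and 3.34% lower. The undecided one was the lectin gene Colec11.

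The 4 expressed genes for proteases of the C1 type all read higher in the knockout model. C1ra, which encodes the protease C1r, read 206 on the knockout array and 95.4 on the wildtype array, a log2 difference of 1.11 (2.16-fold). Its copy C1rb read 107 on the knockout array and 59.4 on the wildtype array, a difference of 0.85 (1.80-fold). C1rl, a C1r-like protease gene, read 139 on the knockout array and 86.0 on the wildtype array (0.70). C1s1, which encodes C1s, read 169 on the knockout array and 119 on the wildtype array (0.50). For C1rb, 2 places of the point were possible on the wildtype array, the one used having a probability of 0.963. For C1ra, 2 were possible on the knockout array, with a probability of 0.992 for the one used. C1rl and C1s1 had 1 possible place on each array. All 4 genes stand side by side on chromosome 6, and each was higher on the knockout array, against 55.0% of all genes expressed on both arrays. C1s2, the next gene there, read 24.6 on the knockout array and 24.9 on the wildtype array (-0.02), below the threshold on both. C1ra and C1rb are close copies, and whether probes of one also read RNA of the other was not tested.

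The C1s1 gene had another probe set, with 74.8 on the knockout array and 60.5 on the wildtype array, a difference of 0.31 in the same direction. In contrast, the genes of the recognition protein C1q were at the low end of the arrays. C1qa read 49.6 on the knockout array and 44.0 on the wildtype array, and C1qb and C1qc were below the threshold in both. Of the lectin genes, Fcna, which encodes a ficolin, was expressed and nearly equal, with 82.7 on the knockout array and 82.2 on the wildtype array, while Mbl1, Mbl2, Fcnb and Colec10 were below the threshold. In the list of classical and lectin pathway starters 6 of 14 restored genes were expressed. C1qa passed the threshold on the knockout array alone, and the other 5 were above 0, with a median of 0.70, against 55.0% above 0 among all 11370 genes expressed on both arrays.

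Most genes of the later steps of the cascade were below the threshold. Of 8 genes for properdin and the terminal components, 6 (C6, C7, C8a, C8b, C8g and C9) were below the threshold in both models. Hc, which encodes C5, read 46.5 on the knockout array and 31.6 on the wildtype array, just at the threshold on the knockout array. Cfp, the properdin gene, read 79.3 on the knockout array and 85.1 on the wildtype array, a difference of -0.10. Both were under 2-fold.

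Among 13 other regulators with a restored point, 5 were expressed, with 1 lower and 0 higher by at least 2-fold. Cpn1, the catalytic subunit of carboxypeptidase N, which trims the anaphylatoxins, read 34.5 on the knockout array and 123 on the wildtype array, a difference of -1.83. The knockout value was below the threshold, and 2 places of the point were possible on the wildtype array, the one used having a probability of 0.989. Cr1l, which encodes the rodent membrane regulator Crry, read 296 on the knockout array and 321 on the wildtype array (-0.12). Cd46, the membrane cofactor protein gene, read 73.7 on the knockout array and 108 on the wildtype array (-0.55). The membrane regulator genes were therefore not all on one side of 0, with Cd55 and Cd59a above it and Cd46 and Cr1l below it. Clu, which encodes the secreted regulator clusterin (113 on both arrays), and Susd4 (82.8 on the knockout array and 56.5 on the wildtype array) were under 2-fold, and Cfi, C4bp and Vtn were below the threshold.

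Receptors of complement fragments were mostly below the threshold, and the expressed ones were under 2-fold. Of 10 genes, 4 were expressed, with a median of 0.03, and the anaphylatoxin receptor genes C3ar1 and C5ar1 were below the threshold in both models. C5ar2, which encodes another receptor of C5a, was expressed, with 49.6 on the knockout array and 56.2 on the wildtype array (-0.18). C1qbp, a mostly mitochondrial protein that also binds C1q, read 544 on the knockout array and 458 on the wildtype array (0.25). Cd93 read 38.9 on the knockout array and 62.2 on the wildtype array (-0.68), with the knockout value under the threshold.

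**Figure D3:**
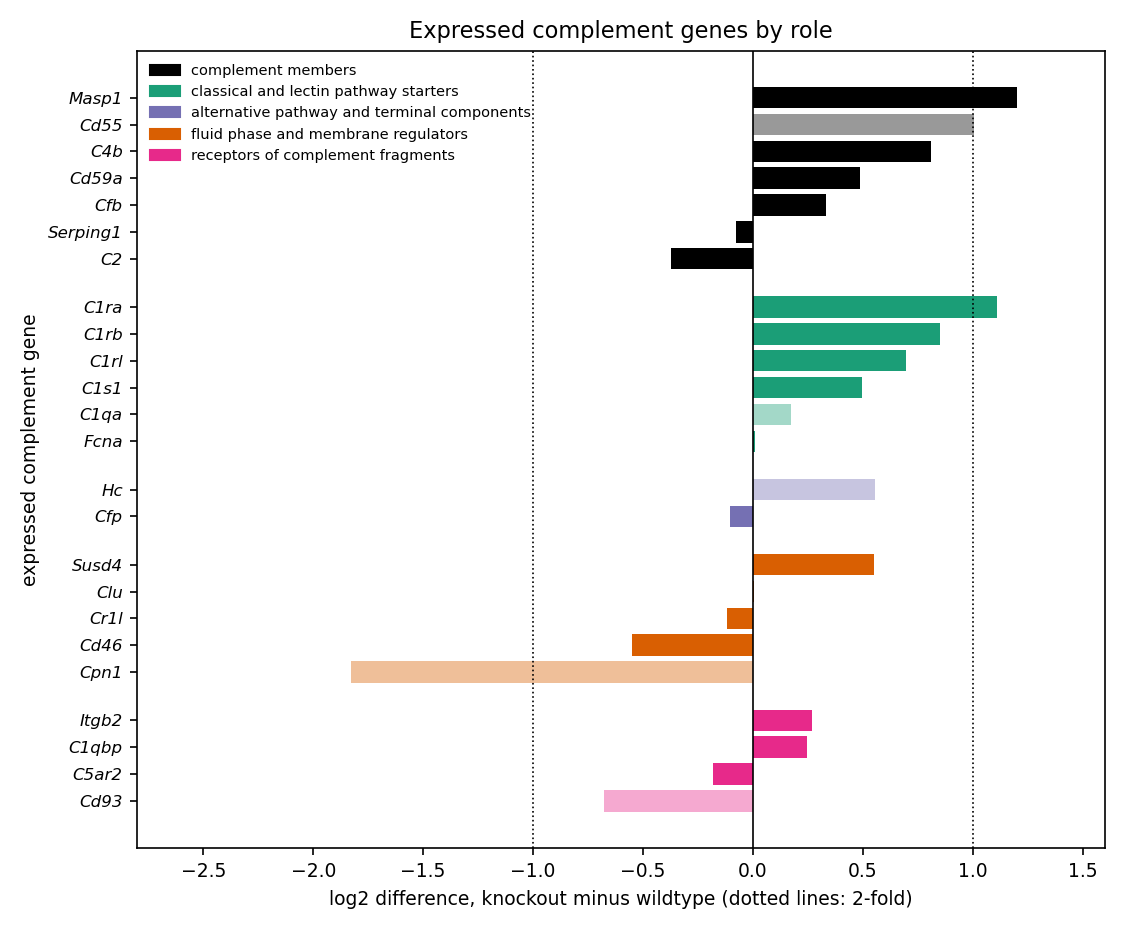
Log2 difference, knockout minus wildtype (horizontal axis), of the 24 expressed complement genes with a restored point, grouped by role, with 1 array per model and no error bars. Paler bars are genes with 1 value under the expression threshold, and dotted lines mark 2-fold. Masp1 and C1ra pass the upper line and Cd55 reaches it at 1.01, while Cpn1 alone passes the lower one.

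Signals known to raise the transcription of complement genes were listed as well. Of 17 with a restored point, 13 were expressed, with 1 higher and 0 lower by at least 2-fold and a median of 0.31. Over all expressed genes, 3.80% were higher and 3.34% lower by at least 2-fold, with a median of 0.04. Il1r1, the interleukin-1 receptor gene, read 3739 on the knockout array and 1585 on the wildtype array, a difference of 1.24 (2.36-fold). Under 2-fold, Il1a, one of its ligands, read 2536 on the knockout array and 1793 on the wildtype array (0.50), and Stat3 2273 on the knockout array and 1828 on the wildtype array (0.31). Of the interferon-gamma receptor genes, Ifngr2 read 1516 on the knockout array and 1106 on the wildtype array (0.46), and Ifngr1 1052 on the knockout array and 1176 on the wildtype array (-0.16). All 13 were expressed on both arrays, and 10 were above 0, against 55.0% of all genes expressed on both. Cebpb had the highest difference under 2-fold, with 449 on the knockout array and 263 on the wildtype array (0.77). Tnf, the tumour necrosis factor gene, had the lowest difference of the list at the place used, with 136 on the knockout array and 218 on the wildtype array (-0.68). For Tnf, 2 places of the point were possible on the knockout array, the one used having a probability of 0.977. Il1a, Ifngr1 and Ifngr2 also had more than 1 possible place, with probabilities of 0.979, 0.992 and 0.976 for those used. Il1b, Il6, Ifng and Ifnb1 were below the threshold in both models. Il6st, Osmr and Rela were undecided. At their likeliest places, with probabilities of 0.80 and 0.79, Il6st and Osmr would also be at least 2-fold higher, which would make the count 3. Taking each likeliest place also raised the count of higher genes among all expressed ones, from 482 to 669.

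Genes around the members on the chromosome were compared with them. C2, Cfb and C4b lie near one another on chromosome 17, and their differences were -0.37, 0.33 and 0.81. Taking 3 protein-coding neighbours on each side of every member and of C1ra, by gene order in RefSeq, gave 33 genes outside the lists. Of these, 24 were expressed and restored, 0 were at least 2-fold apart in either direction, and their median difference was -0.03. A count of 0 of 24 is close to the shares over all expressed genes, 3.80% higher and 3.34% lower. Tnxb, next to C4b, read 49.9 on the knockout array and 56.7 on the wildtype array (-0.18), and Rtp4, next to Masp1, read 118 on the knockout array and 212 on the wildtype array (-0.85).

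Markers of the 2 cell types of the models also differed, in opposite directions. Of 12 fibroblast markers 9 were expressed with a restored point, all on both arrays, and 9 of 9 were above 0, against 55.0% of all genes expressed on both, with a median difference of 0.84 and a range from 0.35 to 1.63. Their summed intensity was 15973 on the knockout array and 9143 on the wildtype array. Of 12 keratinocyte markers 10 were expressed, with differences from -1.61 to -0.30 and a median of -0.99. Krt1 passed the threshold on the wildtype array alone, and the other 9 were below 0, against 45.0% of all genes expressed on both arrays. Their summed intensity was 12445 on the knockout array and 29617 on the wildtype array. Fewer cells of a type and less RNA per cell cannot be told apart in such bulk RNA.

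Set beside the fibroblast median, Masp1 was higher by 0.36 and Cd55 by 0.17 on the log2 scale, and C4b differed from it by -0.03. Cd59a and Cfb lay below it by -0.35 and -0.51, Serping1 by -0.92 and C2 by -1.21. Of the 9 fibroblast markers, 2 had a difference at least as high as Masp1 and 9 one at least as high as Serping1. C2 lay above the keratinocyte median by 0.62, with 2 of 10 keratinocyte markers at least as high. The part of the cell makeup in the complement differences was not tested.

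Markers of cells that the labels do not name as part of the models were partly below the threshold. Of 10 macrophage and Langerhans cell markers 4 were expressed, with summed intensities of 1600 on the knockout array and 1653 on the wildtype array, while Adgre1, Csf1r, Cd207 and Fcgr1 were below the threshold and Ptprc and Mrc1 were undecided. The expressed ones included Cd68, with 861 on the knockout array and 1161 on the wildtype array, and Lyz2, with 151 on the knockout array and 203 on the wildtype array. Cd14 was at least 2-fold higher, with 551 on the knockout array and 240 on the wildtype array. Of the 3 macrophage and Langerhans cell markers expressed on both arrays, 1 was above 0 and 2 below, with a median of -0.43. Of 8 adipocyte markers 5 were expressed, 4 of them on both arrays. These 4 were above 0, against 55.0% of all genes expressed on both. The summed intensity of the 5 was 5890 on the knockout array and 1461 on the wildtype array, most of it Fabp4. Fabp4 and Lpl were at least 2-fold higher (2 of 5), against 3.80% of all expressed genes. The wildtype value of Lpl, 42.3, was under the threshold. Pparg, Plin4 and Plin1 were higher by less than 2-fold, and Adipoq, Lep and Cidec were below the threshold in both models. Of 7 endothelial markers 3 were expressed, with a summed intensity of 192 on the knockout array and 135 on the wildtype array. Among them Kdr read 87.4 on the knockout array and 36.1 on the wildtype array, the latter under the threshold. The 1 endothelial marker expressed on both arrays was below 0. Of 6 mast cell markers 1, Kit, was expressed, with 50.3 on the knockout array and 46.1 on the wildtype array, the latter just under the threshold. Of 6 melanocyte markers 3 were expressed, with a summed intensity of 825 on the knockout array, mostly Mlana, and 232 on the wildtype array. Mlana read 705 on the knockout array and 109 on the wildtype array. Pmel differed by 0.29 and Sox10 by -0.37, and Tyr, Dct and Tyrp1 were below the threshold in both models. The part of all these markers in the complement differences was not tested.

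**Figure D4:**
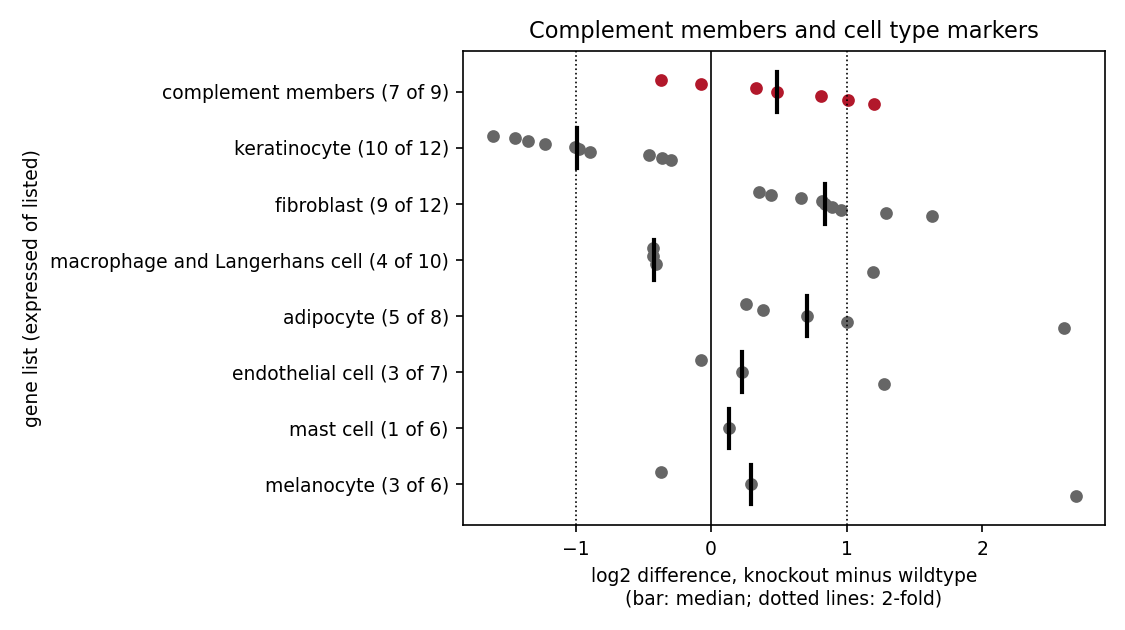
Log2 difference, knockout minus wildtype (horizontal axis), of each expressed gene of the complement members (red) and of 7 cell type marker lists (grey), 1 point per gene, with a bar at the median of each list. The complement members spread from -0.37 to 1.20, the keratinocyte markers lie below 0 and the fibroblast markers above it.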

How the data were processed

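Gene expression was measured in 2 models with 1 array each. Per the labels, RNA was amplified with the Ambion WT Expression Kit. The deposited values are processed intensities by the authors on a linear scale, and no source used here gives their summary or normalization. The decimal point was missing from 67457 of 67586 values. Possible places were those giving the shortest form of a single-precision number that is 2 to a single-precision power, between 18 and 20000. No value lacked one. Pairs of places were weighed by the joint distribution of mean and difference in 25 rounds of expectation maximisation and kept at a probability of 0.95. The range and the minimum were taken over from earlier handling of these data. This restored 31836 probe sets (94.2%), 47.1 of them expected to be misplaced, and left 1957 undecided. The restoration was tested on simulated data, in which differences near 10-fold were often misplaced. There, changes of 2-fold or more were restored less often than smaller ones, so counts and shares of 2-fold genes over all expressed genes are undercounts. The same holds for lists with undecided genes. No member with a probe set was undecided, so the member count lost none in this way and stands beside shares that are too low.

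Medians of 46.2 (knockout) and 46.6 (wildtype) were close, so no normalization was added. Probe sets with several symbols (1814) or none (8458) were not used, 23521 had 1 symbol, and a gene with several was counted by its probe set of highest mean. Counts are of genes at least 2-fold apart, with no test. All members were named, and of the other complement lists those at least 2-fold apart and up to 4 others by level. Genes below the threshold, C1qa, Cebpb, Lpl, Plin1, Tnf, Rtp4 and Tnxb were chosen after their values were seen. The members and lists were chosen with earlier results of these data known. The number of arrays limits the precision. Python 3.11.15, numpy and pandas were used.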

Additional observations from a re-analysis of the deposited data

How the results depend on the processing

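No paired analysis was possible because 1 array stands for each model, and none could be left out. Of 50 member differences under the alternatives, 48 moved by less than 1.5-fold and stayed on their side of 2-fold, 2 moved and 0 reversed sign while 2-fold. Many of the 48 were fixed in advance. Each member had 1 probe set and a restored point, so alternatives on the point or on several probe sets could only repeat its value or drop it. Only the alternatives of normalization and background could move a member difference. Both that moved were of Cd55, 0.77 with a pseudocount of 16 and 1.73 with the 5th percentile of each array subtracted, since its wildtype value is near the background. Masp1 ranged from 1.16 to 1.27. With a probability of 0.99, Cfb was left out, and with 1 possible place only Cd55 and Masp1 remained. Members at least 2-fold higher numbered 1 (Masp1) with the pseudocount and with a filter at the 75th percentile, and 0 at 3-fold. Other complement genes at least 2-fold higher numbered 0 with the pseudocount, with 1 possible place and at 3-fold, 2 with subtraction (C1ra and C1rb) and 3 at 1.5-fold. Those lower numbered 0 with the stricter filter, at 0.99 and with 1 possible place, and 2 with subtraction and at 1.5-fold (Cpn1 and Cd93). Expressed genes at least 2-fold higher numbered 482, against 805 with subtraction and 304 with 1 possible place. Taking each likeliest place gave 669 higher genes and 600 lower ones, where the reported counts are 482 and 424. At 1.5-fold, 1469 were higher and 1062 lower, and at 3-fold 128 and 185, by construction of the threshold. Apart from those of the thresholds and of fewer genes, the cause was not tested.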
